A study of Rattus norvegicus with 9 samples.

Results

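The fatty acid binding proteins and apolipoproteins of the enterocyte were represented on the rat U34A array by 17 of its 8799 probe sets, which belong to 8 genes (Fabp1, Fabp2, Fabp6, Apoa1, Apoa4, Apoc3, Apob and Apoe). Members were all probe sets whose only gene symbol in the platform annotation was one of these 8, and the rule used no measured value. In the absorptive cell of the gut, fatty acid binding proteins carry fatty acids and bile acids through the cytosol, and apolipoproteins coat the lipid particles that the cell secretes. Apolipoprotein B is the scaffold of chylomicrons, apolipoproteins A-I, A-IV and C-III travel on chylomicrons and high density lipoprotein, and apolipoprotein E is a ligand of lipoprotein receptors. These genes are best known from the small intestine and the liver, and the tissue here was the colon.

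Male Sprague Dawley rats received, for life, a purified diet whose only protein was whey protein hydrolysate (WPH), soy protein isolate (SPI) or casein (CAS, the control). All rats, controls included, had been given the colon carcinogen azoxymethane (AOM) at 15 mg/kg in 2 weekly injections beginning at 90 days of age. Tumor-free tissue of the proximal colon was collected 40 weeks afterwards, and RNA of 7 rats was combined into 1 pool per diet. Each pool was labelled in 3 parallel reactions and hybridized to 3 arrays, so that the spread within a diet is technical and each p-value compares pools of RNA and not rats. Values are MAS 5.0 signals, a linear brightness scaled by the authors to an average of 500 on every array, and signals of different genes cannot be ranked against each other. A signal under 100 is called dim below. A difference was called at an adjusted p under 0.05 in a limma fit of log2 signals over 5606 probe sets whose mean was at least 100 in at least 1 diet. Where all 3 arrays of a diet were dim, a fold is a lower bound, computed with those signals set to 100.

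Between 58.7 and 60.3% of probe sets reached a signal of 100 on each array. The arrays were washed on 1 day in 3 rounds, of which the first held all 3 CAS arrays and WPH array 2, the second WPH arrays 1 and 3 with SPI arrays 1 and 2, and the third SPI array 3. SPI therefore shared no round with CAS, and a fit with the round as a block joins these diets only through WPH. In that fit WPH against CAS rests on WPH array 2 alone, which is assumed to vary like the other arrays. The ratio of 3' to 5' β-actin signals, a measure of RNA integrity, lay between 2.53 and 3.5 with WPH, between 2.14 and 2.36 with SPI and between 1.83 and 1.88 with CAS, without overlap. The same ratio for GAPDH overlapped between the diets. It lay between 1.57 and 1.7 with WPH, between 1.48 and 1.65 with SPI and between 1.34 and 1.71 with CAS. The part of the wash round and of RNA integrity in the differences below was not tested beyond the fits with the round as a block. Epithelium and smooth muscle were both present in the tissue, since all 8 measured epithelial markers and all 7 measured smooth muscle markers passed the filter on dim signals. Sucrase-isomaltase (Si), which defines the small intestinal brush border, was dim on all 9 arrays, at 5.4 to 12.3 with WPH, 11.1 to 25.9 with SPI and 2.9 to 10.2 with CAS.

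Of the 17 probe sets, 14 passed the filter. The other 3 were for Apob (M14952mRNA_at, U53873cds_at and M21842_at) and were dim on all 9 arrays, none above 75.7. Some of the 14 passed only through diets in which they were brighter. They were Apoa1 M00001_i_at with SPI and CAS, Apoa4 with WPH and SPI, Apoc3 J02596cds_g_at with SPI, Apob M27440_at with SPI, and Apob rc_AA997806_at with WPH and SPI. With WPH against CAS, 3 of the 14 were called higher and 4 lower, where 20.9% of all probe sets tested were called higher and 17.9% lower (38.8% in either direction). With SPI against CAS, 7 were called higher and 2 lower, against 12.0% and 10.2% of all probe sets (22.2% in either direction). With SPI against WPH, 6 were called higher and 1 lower, against 10.1% and 9.83% (19.9% in either direction). Since those probe sets entered the fit through the diets in which they were bright, the counts are descriptions. Without the filter, over all 17, they were 3 higher and 4 lower, 6 higher and 2 lower, and 6 higher and 1 lower. Of all 8740 probe sets in that fit, 1123 were called higher and 959 lower, 604 and 539, and 537 and 481, in the same order. Several members share a gene, so these counts do not refer to as many independent transcripts.

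**Figure D1:**
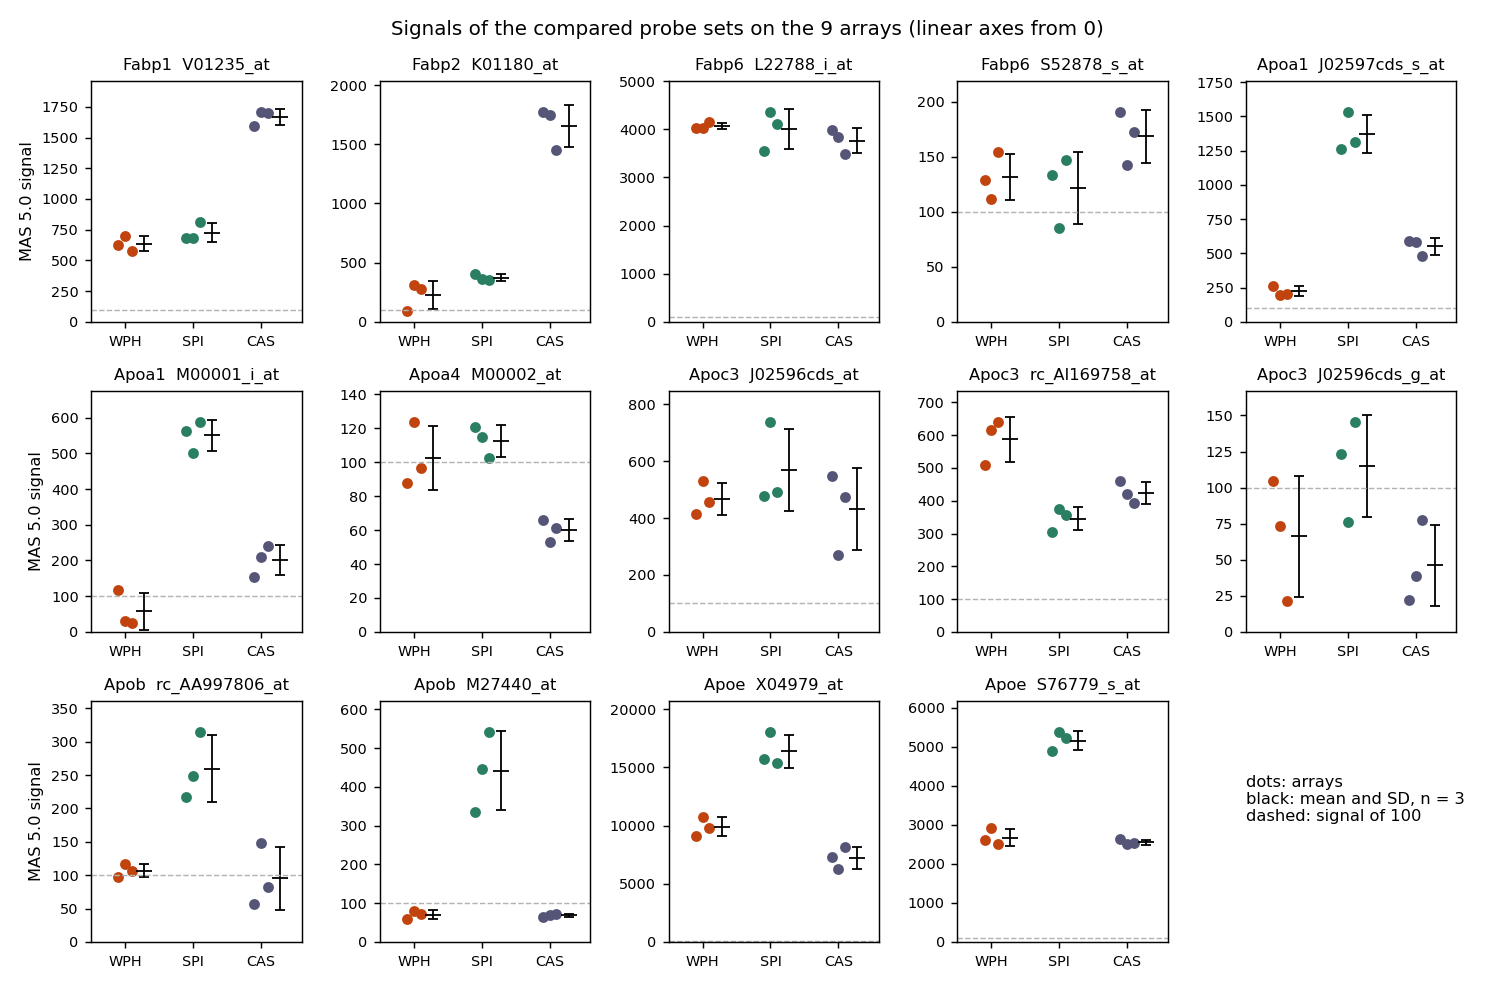
MAS 5.0 signals (vertical axes, linear and starting at 0) of the 14 compared probe sets on the 9 arrays, with WPH, SPI and CAS from left to right; dots are arrays, black marks the mean and SD (n = 3), and the dashed line is a signal of 100. Fabp1 and Fabp2 are highest with CAS, Apoa1, Apob and Apoe are highest with SPI, and Fabp6 L22788_i_at stays between 3480.2 and 4355.4.

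Fabp1 and Fabp2, the liver-type and intestinal-type fatty acid binding proteins, had lower signals, as scaled, with both WPH and SPI than with CAS. Fabp1 (V01235_at, chromosome 4) had signals of 629.4, 700.9 and 579.7 with WPH, 679.5, 681.0 and 814.5 with SPI, and 1592.9, 1705.5 and 1702.5 with CAS. Every WPH and SPI array lay below every CAS array, and the WPH and SPI arrays overlapped each other. The mean was 637 ± 60.9 with WPH, 725 ± 77.5 with SPI and 1667 ± 64.2 with CAS (SD, n = 3 each). Fabp1 was thus 2.62-fold lower with WPH than with CAS (log2 change -1.39 ± 0.11 SE, adjusted p = 2.68e-06, limma) and 2.3-fold lower with SPI than with CAS (-1.21 ± 0.11, adjusted p = 2.32e-05, limma). Between SPI and WPH the log2 difference was 0.19, with a 95% interval of -0.06 to 0.43 (adjusted p = 0.291, limma).

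Fabp2 (K01180_at, chromosome 2), which is named for the intestine and serves there as a cytosolic fatty acid carrier, read 95.2, 311.3 and 275.3 with WPH, 407.0, 361.0 and 353.5 with SPI, and 1769.9, 1743.8 and 1453.5 with CAS. The 3 diets did not overlap, and WPH array 1 was dim. Relative to CAS, Fabp2 fell 7.29-fold with WPH (log2 -3.03 ± 0.35, adjusted p = 3.74e-05, limma) and 4.43-fold with SPI (-2.14 ± 0.35, adjusted p = 0.00119, limma). The SPI call was lost with the wash round as a block (log2 -1.16, adjusted p = 0.349), and in that fit the WPH difference, which rests on WPH array 2 alone, was -2.41 (adjusted p = 0.00524). SPI exceeded WPH by 0.89 on the log2 scale (95% interval 0.13 to 1.66), which did not pass (adjusted p = 0.101, limma) and depended on single arrays: it was 1.20 without WPH replicate 2 (adjusted p = 0.0435) and 0.35 without the dim WPH replicate 1 (adjusted p = 0.114).

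The windows of 250 bases before the start sites of the 3 fatty acid binding protein genes are shown because 2 of the genes were lower with both diets and the third did not. The sequences are those of RefSeq for the rat assembly GRCr8, written 5′ to 3′ along the gene, and capitals mark a direct repeat of AGNNCA with a spacer of 1 base, searched on both strands, the kind of element bound by nuclear receptors such as HNF4 and PPAR. The motifs AGATAA and TATAAA were searched likewise.
Fabp1 (chr4:104749090-104749339, + strand): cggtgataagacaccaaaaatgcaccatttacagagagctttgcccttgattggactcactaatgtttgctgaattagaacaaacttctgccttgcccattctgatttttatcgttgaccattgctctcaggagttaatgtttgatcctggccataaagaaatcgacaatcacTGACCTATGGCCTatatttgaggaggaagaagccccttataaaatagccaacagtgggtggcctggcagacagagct
Fabp2 (chr2:213724379-213724628, + strand): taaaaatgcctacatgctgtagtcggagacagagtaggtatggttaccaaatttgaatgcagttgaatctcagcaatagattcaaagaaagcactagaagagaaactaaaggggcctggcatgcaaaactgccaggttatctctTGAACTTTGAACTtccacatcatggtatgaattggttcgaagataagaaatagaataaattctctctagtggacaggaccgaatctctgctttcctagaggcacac
Fabp6 (chr10:28569728-28569977, - strand): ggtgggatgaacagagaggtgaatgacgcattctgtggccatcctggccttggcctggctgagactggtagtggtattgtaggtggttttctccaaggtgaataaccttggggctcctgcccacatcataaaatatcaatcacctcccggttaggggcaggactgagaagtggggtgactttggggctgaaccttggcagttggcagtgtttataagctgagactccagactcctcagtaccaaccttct
The Fabp1 match lies 77 to 65 bases before the start and the Fabp2 match 106 to 94 bases before it, both on the reverse strand, and these letters do not occur in the Fabp6 window. Of 33469 rat windows of this length, 2.23% hold such a match. AGATAA occurred in Fabp2, on each strand, and in 10.3% of windows, and TATAAA in Fabp1, in Fabp6 on the reverse strand, and in 12.9% of windows. The pattern was picked after the windows had been read, and a match is only a description of the letters. Upstream windows were found for 5 of the 8 genes, and those of Apoa4 and Apoe, searched in the same way, held none of these motifs.

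Fabp6 (chromosome 10), the ileal carrier of bile acids, did not pass the test in any comparison. Probe set L22788_i_at had signals of 4029.9, 4035.5 and 4148.0 with WPH, 3545.6, 4355.4 and 4116.8 with SPI, and 3988.9, 3832.1 and 3480.2 with CAS. The 95% interval of the log2 difference was -0.09 to 0.32 for WPH against CAS, -0.12 to 0.29 for SPI against CAS and -0.23 to 0.18 for SPI against WPH. Fabp6 S52878_s_at lay near the dim limit, at 129.3, 112.0 and 154.0 with WPH, 133.7, 85.0 and 146.8 with SPI, and 190.4, 142.7 and 172.5 with CAS. Its diets overlapped in all 3 comparisons (adjusted p = 0.291, 0.194 and 0.739, limma), with wide intervals of -0.91 to 0.19, -1.05 to 0.05 and -0.69 to 0.41. The suffix _s_at marks a probe set whose probes can match more than a single transcript.

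Apoa1 encodes the main protein of high density lipoprotein, and it differed in opposite directions with the 2 diets. Probe set J02597cds_s_at (chromosome 8) had signals of 264.8, 197.6 and 205.2 with WPH, 1264.4, 1529.4 and 1315.7 with SPI, and 591.9, 579.3 and 479.9 with CAS. The order was SPI, then CAS, then WPH, with no overlap between neighbours. Apoa1 was 2.47-fold lower with WPH than with CAS (log2 -1.31 ± 0.15, adjusted p = 3.09e-05, limma), 2.49-fold higher with SPI than with CAS (1.32 ± 0.15, adjusted p = 8.64e-05) and 6.16-fold higher with SPI than with WPH (2.63 ± 0.15, adjusted p = 3.51e-07). By the methods' t-test with adjusted p, SPI passed against neither CAS (adjusted p = 0.0609) nor WPH (0.068).

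The other Apoa1 probe set, M00001_i_at, ran in the same order. It read 117.9, 31.7 and 25.1 with WPH, 563.4, 502.3 and 587.0 with SPI, and 154.5, 209.1 and 239.7 with CAS, again without overlap. It was 2.74-fold higher with SPI than with CAS (log2 1.47 ± 0.46, adjusted p = 0.0411, limma). Only 1 of the 3 WPH arrays reached 100, so no fold is given for WPH, whose log2 difference was -2.12 ± 0.46 against CAS (adjusted p = 0.00332), or -2.81 without WPH replicate 1. The log2 difference of SPI against WPH was 3.60 ± 0.46 (adjusted p = 0.00026). This probe set entered the fit through SPI and CAS. In the limma fit without a filter on dim signals, the adjusted p was 0.00662 for WPH against CAS and 0.000596 for SPI against WPH. With the wash round as a block, the increase with SPI over CAS was not called for either probe set (J02597cds_s_at 1.11, adjusted p = 0.0687; M00001_i_at 0.65, adjusted p = 0.769), whereas the SPI against WPH difference was (5.75e-05 and 0.00902). The WPH decrease, resting there on WPH array 2 alone, had an adjusted p of 0.00129 and 0.0205. M00001_i_at also lost its call for SPI against CAS without a filter on dim signals (adjusted p = 0.0688) and without any single CAS or SPI array: the adjusted p was 0.131, 0.0808 and 0.0701 without CAS replicate 1, 2 and 3, and 0.102, 0.0692 and 0.108 without SPI replicate 1, 2 and 3.

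Apoa4, Apoc3 and Apoa1 are neighbours on chromosome 8, and the 3 genes differed in their pattern. Apoa4 (M00002_at), an apolipoprotein of chylomicrons made largely by the small intestine in rats, had signals of 87.5, 123.6 and 96.7 with WPH, 120.6, 115.0 and 102.4 with SPI, and 66.1, 53.1 and 61.5 with CAS. All WPH and SPI arrays were above all CAS arrays, which were dim. Apoa4 was called higher with WPH (log2 0.76 ± 0.26, adjusted p = 0.0406, limma, at least 1.03-fold) and with SPI (0.91 ± 0.26, adjusted p = 0.0297, at least 1.13-fold). It entered the fit through these 2 diets, and without a filter on dim signals the adjusted p was 0.0452 and 0.0335. The WPH call was lost with the wash round as a block (adjusted p = 0.0675), after quantile normalization (0.0502), with only WPH and CAS in the fit (0.0792), with a replicate block (0.079), and without any single array other than WPH replicate 1, with adjusted p from 0.0544 without SPI replicate 2 to 0.129 without WPH replicate 2. The SPI call was lost with the wash round as a block (adjusted p = 0.152), with a replicate block (0.0678), and without any single CAS or SPI array, with adjusted p from 0.0523 without CAS replicate 1 to 0.101 without SPI replicate 1. Between SPI and WPH the 95% interval was -0.43 to 0.73 on the log2 scale.

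Apoc3, an inhibitor of lipoprotein lipase, was read by 3 probe sets that did not move together. Probe set rc_AI169758_at had signals of 510.0, 615.1 and 639.5 with WPH, 306.0, 374.6 and 356.6 with SPI, and 459.8, 420.1 and 394.0 with CAS, so that the diets did not overlap. It was 1.39-fold higher with WPH than with CAS (log2 0.47 ± 0.13, adjusted p = 0.0172, limma) and 1.7-fold lower with SPI than with WPH (-0.77 ± 0.13, adjusted p = 0.0023), while SPI against CAS did not pass (-0.30, adjusted p = 0.147). The WPH call was lost with the wash round as a block (adjusted p = 0.0921) and without CAS replicate 3, WPH replicate 2 or WPH replicate 3 (0.0665, 0.0579 and 0.061).

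Apoc3 J02596cds_at read 415.2, 529.5 and 456.8 with WPH, 479.3, 737.1 and 493.5 with SPI, and 548.7, 271.1 and 475.8 with CAS. Its diets overlapped throughout, and the intervals of -0.38 to 0.72 for WPH against CAS and -0.12 to 0.99 for SPI against CAS leave its direction undetermined. Apoc3 J02596cds_g_at was dim on 2 of 3 WPH arrays, 1 of 3 SPI arrays and all 3 CAS arrays, and passed in no comparison (adjusted p = 0.631, 0.134 and 0.304, limma).

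Apob, the structural protein of chylomicrons, was bright only with SPI on the probe set M27440_at (chromosome 6). Its signals were 59.0, 80.0 and 72.2 with WPH, 336.5, 447.5 and 541.1 with SPI, and 63.5, 69.1 and 72.1 with CAS. All 3 WPH and all 3 CAS arrays were dim, and no fold is given between these diets. Apob M27440_at was at least 4.42-fold higher with SPI than with CAS (log2 2.67 ± 0.23, adjusted p = 1.4e-05, limma; with the wash round as a block 0.00693) and at least 4.42-fold higher with SPI than with WPH (2.63 ± 0.23, adjusted p = 1.51e-05; 0.000472 with the block). It entered the fit through SPI alone, and in the fit without a filter on dim signals the adjusted p was 3.49e-05 and 3.55e-05. By the methods' t-test with adjusted p, neither difference was called (adjusted p = 0.134 and 0.153).

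The probe set rc_AA997806_at for Apob had the same direction. It read 97.0, 117.4 and 105.9 with WPH, 216.7, 248.1 and 314.2 with SPI, and 56.7, 147.9 and 81.6 with CAS, and SPI overlapped neither of the other diets. It was higher with SPI than with CAS by 1.54 ± 0.32 on the log2 scale (adjusted p = 0.00493, limma), with no fold given because only 1 of the 3 CAS arrays reached 100, and 2.43-fold higher with SPI than with WPH (1.27 ± 0.32, adjusted p = 0.0163). Both calls were lost with the wash round as a block (adjusted p = 0.199 and 0.104), and the second also without SPI replicate 3 (0.0709). Without a filter on dim signals the adjusted p was 0.00943 and 0.0279. The 3 Apob probe sets that did not pass the filter averaged 51.1, 10.9 and 8 with WPH, 36.4, 6.3 and 1.4 with SPI, and 47, 8.03 and 1.83 with CAS, so they showed no increase with SPI. The rise thus came from 2 of the 5 Apob probe sets.

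Apoe (chromosome 1), which is made by hepatocytes and macrophages among other cells, was brightest with SPI on both of its probe sets. X04979_at had signals of 9133.8, 10759.6 and 9779.5 with WPH, 15733.4, 18013.9 and 15412.1 with SPI, and 7319.2, 6264.1 and 8134.2 with CAS, and the 3 diets did not overlap. It was 2.26-fold higher with SPI than with CAS (log2 1.18 ± 0.11, adjusted p = 2e-05, limma), 1.66-fold higher with SPI than with WPH (0.73 ± 0.11, adjusted p = 0.000724) and 1.37-fold higher with WPH than with CAS (0.46 ± 0.11, adjusted p = 0.00569). Quantile normalization lowered this last change to 0.28 (adjusted p = 0.0425).

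Apoe S76779_s_at read 2595.8, 2919.9 and 2498.3 with WPH, 4875.4, 5367.4 and 5220.1 with SPI, and 2627.6, 2493.9 and 2524.5 with CAS. SPI stood above both other diets, which overlapped. The rise was 2.02-fold with SPI against CAS (log2 1.02 ± 0.09, adjusted p = 1.09e-05, limma) and 1.93-fold with SPI against WPH (0.95 ± 0.09, adjusted p = 1.76e-05), while WPH against CAS was 0.06 with a 95% interval of -0.12 to 0.25. The 2 probe sets of Apoe therefore differed in whether WPH passed the test against CAS. With the wash round as a block, both kept their calls for SPI against CAS (adjusted p = 0.00693 and 0.00443).

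**Figure D2:**
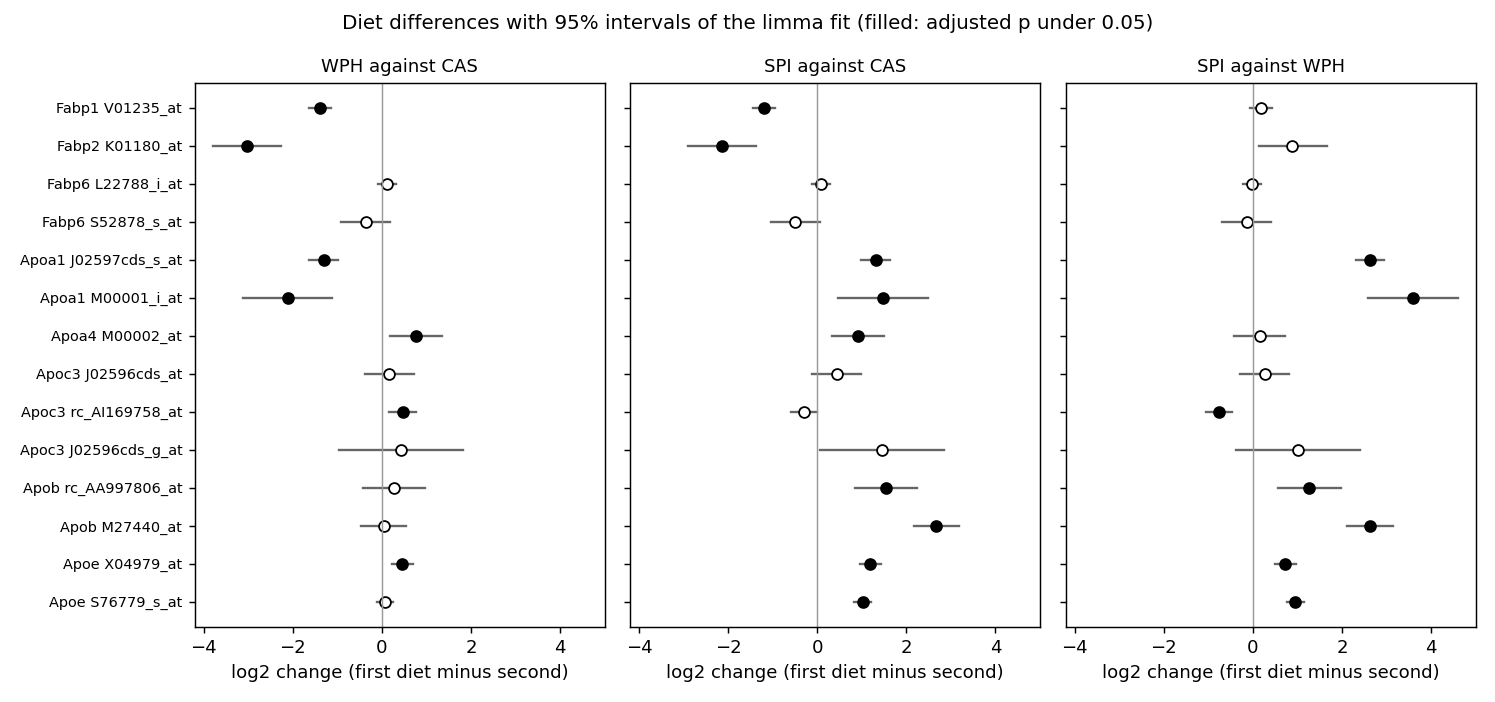
Log2 changes (horizontal axes, first diet minus second) of the 14 compared probe sets in the 3 comparisons, with 95% intervals from the limma fit; filled circles passed an adjusted p under 0.05. Fabp1 and Fabp2 lie left of 0 against CAS with both diets, while both Apoa1 probe sets lie at -1.31 and -2.12 with WPH and at 1.32 and 1.47 with SPI.

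Over the 9 arrays the members did not form 1 pattern. Taking for each gene its brightest probe set by mean log2 signal, Pearson's r of log2 signals was 0.92 between Fabp1 and Fabp2, -0.88 between Fabp1 and Apoa4, 0.85 between Apoa4 and Apoe, and 0.79 between Apob and Apoe, but 0.11 between Fabp1 and Apoa1. The 9 arrays share 3 RNA pools, so these values describe differences between pools.

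By the same measure the genes most like Fabp1 were Man2b1 (r = 0.990), Car2 (0.989) and Gstm2 (0.988), where Car2 is a carbonic anhydrase of surface colonocytes. Ly6l, Ica1 and Gsta3 were nearest to Fabp2 (0.983, 0.981 and 0.978), and Arhgef7, Tnnt3 and Slc28a1 to Fabp6 (0.888, 0.873 and 0.871). Apoa1 was nearest to Tkfc, Papss2 and Muc4 (0.975, 0.971 and 0.969); Papss2, a sulfate donor synthase, averaged 428 with WPH, 3635 with SPI and 976 with CAS. Fgfr1, Cst3 and Igfbp2 were most like Apoa4 (0.951, 0.947 and 0.945), and Tap1, Homer1 and St3gal5 most like Apoc3 (0.885, 0.884 and 0.883). Closest to Apob were Gata4 (0.964, by L22761_at), the apolipoprotein gene Apoc1 (0.942) and Enpp3 (0.924). Gata4 encodes a transcription factor of the proximal small intestine; L22761_at averaged 44.4 with WPH, 206 with SPI and 42.7 with CAS, but the probe set rc_AI234969_s_at of the same gene averaged 120 with WPH, 103 with SPI and 127 with CAS. Lyz2, Lgals3bp and Col1a1 followed Apoe (0.976, 0.976 and 0.965), and Lyz2, lysozyme of macrophages, averaged 3331 with WPH, 6692 with SPI and 2412 with CAS.

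Marker genes of the cells in the sampled wall moved with the diets too. In bulk tissue, fewer cells of a type and less RNA per cell cannot be told apart. Relative to CAS, all 8 epithelial markers were lower in WPH colons and 5 of the 8 in SPI colons, with median log2 changes of -2.35 and -0.50 against 0.06 and -0.01 over all probe sets, of which 17.9% and 10.2% were called lower. Their summed signal ranged over 8887 to 9838 with WPH, 25159 to 26751 with SPI and 35482 to 36296 with CAS. Epcam, the epithelial adhesion molecule, averaged 440 with WPH, 2299 with SPI and 4124 with CAS. Surface colonocyte markers fell in 11 of 11 cases with WPH and in 10 with SPI, and their sum, over the 13 on the array, ranged over 9249 to 9626 with WPH, 14480 to 14978 with SPI and 34128 to 38417 with CAS. All 3 goblet cell markers fell with WPH, and 2 of them fell with SPI. All 7 smooth muscle markers were higher with each diet than with CAS, where 20.9% (WPH) and 12.0% (SPI) of all probe sets were called higher. With the wash round as a block, SPI against CAS kept 2 lower epithelial markers, 7 lower surface colonocyte markers and 3 higher smooth muscle markers. Relative to the mean log2 signal of the 8 epithelial markers on each array, Fabp1 differed from CAS by 0.84 with WPH and -0.69 with SPI. By this measure Fabp2 differed from CAS by -0.80 with WPH and -1.63 with SPI. The part of the cell makeup in the Fabp1, Fabp2 and Apoa1 differences was not tested.

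Markers of the small intestinal enterocyte did not follow 1 direction. Of 12 compared, 2 were higher and 4 lower with WPH, where 20.9% and 17.9% of all probe sets were called. Cps1 and Rbp2 are among these WPH calls although their WPH and CAS means were under 100. With SPI against CAS, 5 were higher and 3 lower (1 and 1 with the wash round as a block), beside 12.0% and 10.2%. With SPI against WPH, 6 were higher and none lower, beside 10.1% and 9.83%. Cps1, a urea cycle enzyme of small intestine and liver, averaged 69.3 with WPH, 2109 with SPI and 35.6 with CAS and was at least 21.1-fold higher with SPI than with CAS, having passed the filter through SPI alone. Rbp2, the retinol carrier of enterocytes, averaged 24.2 with WPH, 469 with SPI and 91.7 with CAS, so that only the SPI mean reached 100. Mep1a, a brush border metalloprotease, was lower than with CAS in both (4.2-fold with WPH, 2.44-fold with SPI). Of the list's defining genes, sucrase-isomaltase was dim throughout, and Lct, lactase, averaged 174 with WPH, 164 with SPI and 161 with CAS.

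The liver also makes Apoa1. The counts of hepatocyte and macrophage markers stand beside 20.9% of all probe sets called higher and 17.9% lower with WPH against CAS. For SPI against CAS these shares were 12.0% and 10.2%. Of 8 compared hepatocyte markers, 5 were higher with WPH and 5 lower with SPI than with CAS (4 and 2 with the wash round as a block), Fga and Cyp2e1 passed with neither diet, and their sum, over the 13 on the array, ranged over 3177 to 3373 with WPH, 938 to 1049 with SPI and 1501 to 1767 with CAS. Alb, albumin, averaged 416 with WPH, 46.8 with SPI and 122 with CAS. Macrophage markers were mixed, with 2 of 6 higher and 2 lower with WPH and 3 of 6 higher and 2 lower with SPI, and their sum, over the 7 on the array, ranged over 8031 to 8644 with WPH, 14653 to 15483 with SPI and 11635 to 11846 with CAS. Lyz2 and C1qb were called higher, and Cd14 and Ctss lower, with each diet, and the sum is carried in part by Ctss, cathepsin S, which averaged 2786 with WPH, 5843 with SPI and 7302 with CAS. With the wash round as a block, 2 macrophage markers were called higher and 0 lower with SPI against CAS. The part of hepatocytes and macrophages in the Apoe difference was not tested.

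**Figure D3:**
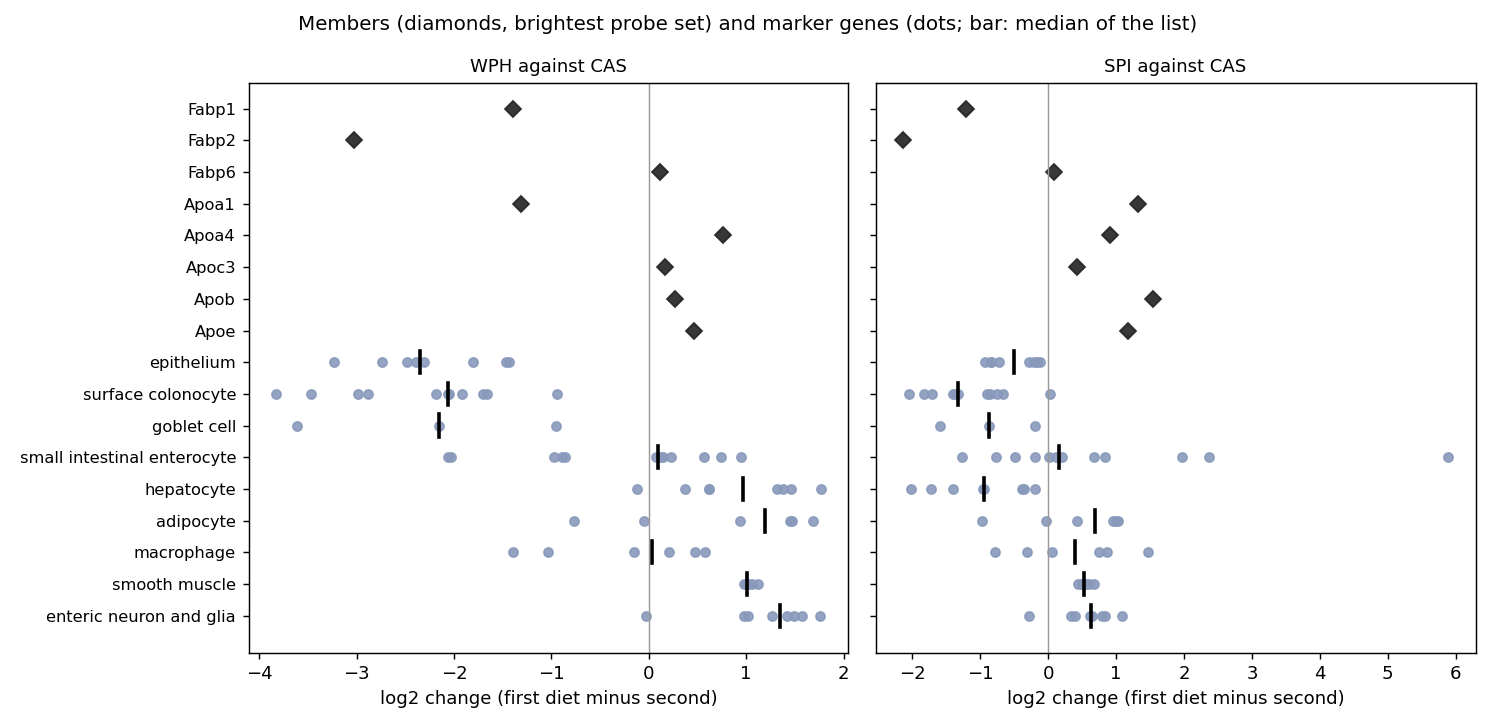
Log2 changes (horizontal axes, first diet minus CAS) of the 8 genes, as diamonds for the brightest probe set by mean log2 signal, and of each measured marker gene of 9 cell type lists, as dots with the list median as a bar. Epithelial and surface colonocyte markers lie left of 0 with WPH, with medians of -2.35 and -2.06, and the median of the hepatocyte markers is 0.97 with WPH and -0.95 with SPI.

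The counts of the gene lists that follow stand beside 20.9% of all probe sets called higher and 17.9% lower with WPH against CAS, and 12.0% and 10.2% with SPI against CAS, and their medians beside 0.06 and -0.01. Among other genes of fatty acid uptake, binding and activation, 11 of the 20 listed were compared, with median log2 changes of 0.00 with WPH and -0.17 with SPI. With WPH against CAS, Acsl1, Fabp4 and Fabp5 were higher and Acsl3, Acsl5 and Dbi lower, and with SPI against CAS, Fabp4 and Fabp5 were higher and Dbi and Got2 lower. Fabp5, the epidermal-type fatty acid binding protein, read 1330.0, 1514.8 and 1360.9 with WPH, 1259.4, 1483.6 and 1394.4 with SPI, and 612.5, 562.3 and 677.9 with CAS. Relative to CAS, Fabp5 rose 2.27-fold with WPH (adjusted p = 6.99e-06, limma) and 2.23-fold with SPI (2.52e-05), the direction opposite to Fabp1 and Fabp2. Fabp4, the adipocyte-type protein, was 2.74-fold higher with WPH and 2.01-fold with SPI, and it is itself one of the adipocyte markers, of which 4 of 6 were higher and 1 lower with each diet. Its SPI call was lost with the wash round as a block (adjusted p = 0.638). Dbi, the acyl-CoA binding protein, averaged 740 with WPH, 1002 with SPI and 1705 with CAS. Acsl5, an intestinal acyl-CoA synthetase, averaged 456 with WPH, 975 with SPI and 1055 with CAS and was called lower with WPH only (adjusted p = 0.000187), while SPI against WPH was 2.14-fold higher (adjusted p = 0.000963).

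Of the genes of lipoprotein assembly and other apolipoproteins, 7 were compared (median log2 change -0.43 with WPH and 0.03 with SPI). With WPH against CAS, Clu was higher and Apobec1, Dgat1 and P4hb were lower, and with SPI against CAS only Apoc1 was called. Apobec1, which edits the Apob messenger RNA, read 190.2, 190.9 and 149.9 with WPH, 314.7, 365.7 and 378.3 with SPI, and 430.3, 412.9 and 401.0 with CAS. It was 2.34-fold lower with WPH than with CAS (adjusted p = 4.23e-05, limma) and 1.99-fold higher with SPI than with WPH (0.000596). P4hb, a subunit of the transfer protein that lipidates apolipoprotein B, averaged 3326 with WPH, 5071 with SPI and 5711 with CAS. Apoc1 averaged 181 with WPH, 369 with SPI and 153 with CAS and was 2.41-fold higher with SPI than with CAS (adjusted p = 0.000229), which was not called with the wash round as a block (0.0673).

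Among lipases, lipoprotein receptors and sterol transporters, 10 genes were compared (median 0.40 with WPH and 0.26 with SPI). Lpl, Lipe and Pnlip were higher with WPH, Lpl, Lipe and Scarb1 were higher with SPI, and none was lower than with CAS. Lpl, the lipoprotein lipase that Apoc3 inhibits, read 3406.2, 3179.4 and 3128.5 with WPH, 2614.6, 2283.4 and 2227.1 with SPI, and 1070.6, 1288.1 and 1214.2 with CAS, a rise of 2.72-fold with WPH (adjusted p = 8.87e-07, limma) and of 1.99-fold with SPI (4.45e-05). Lpl and Lipe are also on the adipocyte marker list. With the wash round as a block, Lpl alone of these kept its call with SPI (adjusted p = 0.0305).

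In bile acid handling, 6 genes were compared beside Fabp6, and 3 were lower with each diet than with CAS (median -0.74 with WPH and -0.55 with SPI). Abcc3, an exporter of bile salts and glucuronides, read 306.8, 268.2 and 297.9 with WPH, 510.5, 557.7 and 525.9 with SPI, and 1011.6, 1181.7 and 1200.7 with CAS. Its decrease relative to CAS was 3.89-fold with WPH (adjusted p = 2.51e-07, limma) and 2.13-fold with SPI (5.95e-05). Nr1h4, the bile acid receptor that drives Fabp6, averaged 131 with WPH, 230 with SPI and 280 with CAS and was called lower with WPH only (adjusted p = 0.0061), with a SPI against WPH difference of 0.80 (adjusted p = 0.0449). Fgfr4, a receptor of bile acid feedback in the liver, differed from CAS by a 1.66-fold decrease in WPH and a 2.12-fold decrease in SPI. Cyp27a1, a sterol hydroxylase, averaged 568 with WPH, 379 with SPI and 593 with CAS. With the wash round as a block, Abcc3 alone of the 3 kept its call with SPI (adjusted p = 0.0188), and Nr1h4 lost its call for SPI against WPH (0.265).

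Of 20 compared transcription factors of lipid metabolism and intestinal identity, 1 was higher and 9 lower with WPH than with CAS, and 6 were lower and none higher with SPI than with CAS. With SPI against WPH, 7 were higher, where 10.1% of all probe sets were called higher. Foxa2 is among these 7 although dim on all SPI and WPH arrays (means 62.3 and 8.23), having passed the filter through CAS alone. With the wash round as a block, 2 of the 7 kept their call for SPI against WPH, Foxa3 (adjusted p = 0.000886) and Foxa2 (0.0167). In that fit 352 of all 5606 probe sets were called higher with SPI than with WPH. Foxa3, a forkhead factor of endoderm, read 89.3, 54.5 and 86.8 with WPH, 286.1, 241.3 and 294.8 with SPI, and 544.0, 548.7 and 511.8 with CAS. This is a decrease of at least 5.35-fold with WPH (adjusted p = 9.52e-07, limma) and of 1.95-fold with SPI (0.00483). Klf4, a factor of differentiated gut epithelium, averaged 1532 with WPH, 2348 with SPI and 4833 with CAS. Nr2f6 was lower than with CAS in both diets (1.82-fold for WPH, 1.43-fold for SPI), and Foxa2 at least 1.58-fold with WPH. With the wash round as a block, the SPI calls of Pparg, Gata6, Nr2f6 and Klf4 were lost (adjusted p = 0.667, 0.373, 0.225 and 0.168), and those of Foxa3 and Cdx1 were not (0.0127 and 0.0338). Over the list the median was -0.45 (WPH against CAS) and -0.24 (SPI against CAS), on the log2 scale.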

How the data were processed

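The data were 9 rat U34A arrays, 3 per diet. Signal intensity values, as deposited, had been computed by the authors with MAS 5.0, which scaled each array to 500. A detection call was not used here. The deposited instrument settings, of another kind, were read only for hybridize times, taken as wash times. A gap of more than 30 minutes was chosen here to begin a new round. The 59 Affymetrix controls were left out of 8799 probe sets. Signals under 0.1 were set to 0.1 and changed to log2, without further normalization. All 3 diets were fitted together with limma 3.58.1 in R 4.3.3 (variance trend), p-values were adjusted over 5606 probe sets (Benjamini-Hochberg), and every adjusted p is from this fit unless an alternative is named. Folds are ratios of mean signals. The fit was tested on simulated data. Python 3.11.15 with numpy 2.4.6, pandas 2.3.3 and matplotlib 3.10.9 did the rest. The number of arrays limits the precision, and arrays of 1 pool do not show the spread between rats.

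The platform annotation gave 7018 probe sets 1 symbol, 308 several and 1473 none. All member probe sets are named; from each other list up to 4 genes with the smallest adjusted p are given with values, by their brightest probe set (mean log2), and for each member the 3 genes of highest Pearson correlation. Si, Lct and Gata4 rc_AI234969_s_at were added as defining markers or second probe sets after their values were seen. The members and lists were chosen with earlier results of these data known. Each result was recomputed with signals floored at 50, with 32 added before log2, with the filter raised to 200 or dropped, after quantile normalization, after centring on array medians, without the variance trend, with 2 diets in the fit, by the methods' t-test, with 1 probe set for each gene, with a block for replicate number or for wash round, and without each array in turn.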

Additional observations from a re-analysis of the deposited data

Results flagged for a closer look

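Apoa1 went in opposite directions with the 2 diets relative to CAS on both of its probe sets, lower with WPH and higher with SPI. The test of that difference is the log2 difference between SPI and WPH. It was 2.63 for J02597cds_s_at (adjusted p = 3.51e-07, limma) and 3.60 for M00001_i_at (adjusted p = 0.00026, limma). M00001_i_at entered the fit through SPI and CAS, and without a filter on dim signals its adjusted p was 0.000596. By the methods' t-test with adjusted p, the difference was not called for J02597cds_s_at (adjusted p = 0.068). For both probe sets all 9 pairs of SPI and WPH arrays had the higher signal with SPI. The SPI increase over CAS was not called for either probe set with the wash round as a block (adjusted p = 0.0687 and 0.769), nor for M00001_i_at without any single CAS or SPI array (0.0692 to 0.131). The opposite directions are those of the signals as scaled. Relative to the mean log2 signal of the 8 epithelial markers on each array, the differences from CAS were 0.92 and 0.11 with WPH. With SPI they were 1.83 and 1.99. The part of the cell makeup was not tested.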

How the results depend on the processing

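The main counts of the 14 compared probe sets were 7 with WPH against CAS, 9 with SPI against CAS and 7 with SPI against WPH. Over all probe sets tested, 38.8, 22.2 and 19.9% were called. The methods' t-test after Benjamini-Hochberg adjustment left 3, 5 and 2, and at P under 0.05 unadjusted 7, 10 and 7. After adjustment it lost, among others, Fabp2 with SPI against CAS (adjusted p = 0.0697). Apoe X04979_at lost its calls for WPH against CAS (0.0818) and for SPI against WPH (0.0802). Over all 5606 probe sets the adjusted t-test called 478 higher and 504 lower, 113 and 138, and 91 and 46. Unadjusted, it called 1113 and 943, 734 and 719, and 589 and 693. The wash round as a block left 4 with SPI against CAS (3 higher, 1 lower), and 1 probe set per gene left 3 with SPI against WPH, of 8 compared. With that block, 100 of all 5606 probe sets were called higher and 152 lower with SPI against CAS. At 1 probe set per gene, 440 of 4372 were higher and 470 lower with SPI against WPH. Leaving out 1 array gave 5 to 7 (1 to 3 higher, 4 lower), 7 to 9 (5 to 7 higher, 2 lower) and 6 to 8 (5 to 7 higher, 1 lower). Of all 5606 probe sets, 998 to 1203 were then called higher and 852 to 1015 lower with WPH against CAS. These ranges were 457 to 668 and 420 to 610 with SPI against CAS, and 425 to 559 and 343 to 557 with SPI against WPH. The replicate block gave 6, 7 and 7, and the numbers do not pair the arrays (correlations of same-numbered arrays -0.275 to 0.237). Over all 5606 probe sets the replicate block called 1076 higher and 936 lower, 537 and 493, and 481 and 409. Of values for single probe sets, 900 kept their direction and side of the threshold, 55 lost a call, 2 gained one and 10 changed sign, none of these called. With SPI against WPH, the sign changed for Fabp6 L22788_i_at without SPI replicate 1 (range over left-out arrays -0.09 to 0.06) and Fabp6 S52878_s_at without SPI replicate 2 (-0.29 to 0.10). With WPH against CAS it changed for Apoc3 J02596cds_at without CAS replicate 2 (-0.14 to 0.37), Apoc3 J02596cds_g_at without CAS replicate 1 (-0.00) or WPH replicate 1 (-0.04 to 1.11), Apob rc_AA997806_at without CAS replicate 1 (-0.05 to 0.65), Apob M27440_at without CAS replicate 1 (-0.02) or WPH replicate 2 (-0.06 to 0.16) and with the wash round as a random block (-0.03), and Apoe S76779_s_at without WPH replicate 2 (-0.00 to 0.11). The cause was not tested. The comparison within 1 wash round was added after seeing the data. Dim signals bound what can be said of Apoa4, of Apob and, with WPH, of Apoa1 M00001_i_at.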
